A study of Homo sapiens with 12 samples.

Results

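The 5 genes that encode the NFKB transcription factor subunits (*NFKB1*, *NFKB2*, *REL*, *RELA* and *RELB*) were followed through RNA-seq libraries of the HL-60/S4 cell line. They were chosen by gene family, by matching the Ensembl identifiers of the count table to these 5 symbols, and they are 5 of the 58288 genes in the table. HL-60/S4 is an established human myeloid leukemia line that grows as promyelocytes in suspension and turns into granulocyte-like cells when given all-trans retinoic acid (ATRA). The study asked how TNF-α, an inflammatory cytokine, changes transcription in these cells before and after that differentiation.

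There were 12 libraries, 3 in each of 4 groups, each from a separate flask. Promyelocyte vehicle flasks held undifferentiated cells that received water for 2 h, and promyelocyte TNF flasks held undifferentiated cells that received 16 ng/ml of TNF-α for 2 h. Granulocyte vehicle and granulocyte TNF flasks had the same treatments after 4 days in 1 µM ATRA. The study resuspended these differentiated cells in fresh medium that still held 1 µM ATRA, at a lower cell density than the undifferentiated cells. All cells were HL-60/S4 at passage 8, and calcium was added to the medium of every group during the treatment. Because all flasks come from 1 line, p-values measure the spread between flasks and not between people. The promyelocyte and the granulocyte experiments were run separately. Cell type, ATRA, cell density and experiment thus cannot be told apart when levels or responses to TNF-α are compared between the cell types.

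NFKB dimers wait in the cytoplasm, bound by inhibitors of the IκB family. When TNF-α binds its receptor, adaptors and ubiquitin ligases activate the IκB kinases, the inhibitors are destroyed, and dimers of RELA or REL with the product of *NFKB1* enter the nucleus; this is the canonical arm. A slower, non-canonical arm acts through the kinase encoded by *MAP3K14*, which drives the trimming of the *NFKB2* precursor and the release of dimers with RELB. RELA, REL and RELB carry transactivation domains, whereas *NFKB1* and *NFKB2* encode long precursors that can hold other subunits back until they are trimmed to DNA-binding subunits. In myeloid cells the family is known for switching on cytokine, chemokine and survival genes.

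The libraries held from 22829189 to 31895061 assigned read pairs (median 28233190), so that 3 counts, the floor of detection used here, are a far smaller share of a library than any value of the 5 genes, whose lowest count was 162. Whether the depth or the number of libraries limits the precision more was not tested. The labels were checked with marker genes, as sums of normalised counts (CPM, read pairs scaled to a common library size after TMM normalisation). The 6 granulocytic markers added up to 150.03 to 157 CPM in promyelocyte vehicle libraries, 242 to 259 in promyelocyte TNF, 3657 to 3820 in granulocyte vehicle and 3620 to 3698 in granulocyte TNF libraries. Among them only *CYBB* was called higher with TNF-α in promyelocytes, from 113 ± 4.43 to 216 ± 11.4 CPM (SD, n = 3). There *CSF3R* was called lower and the other 4 were not called. The 5 azurophil granule genes of promyelocytes added up to 7321 to 8147, 6065 to 6966, 2134 to 2346 and 2145 to 2352 CPM in the same order, with *ELANE* at 3 counts or fewer in every granulocyte library. Monocyte and macrophage markers added up to 3.90 to 4.77 CPM in promyelocyte vehicle, 2.93 to 3.95 in promyelocyte TNF, 49.2 to 51.4 in granulocyte vehicle and 30.4 to 34.0 in granulocyte TNF libraries. The sums of the granulocyte groups did not overlap. *CSF1R* made up nearly all of them, at 49.7 ± 1.18 CPM with vehicle and 32.2 ± 2.16 with TNF-α. It fell there by 0.64 on the log2 scale (edgeR adjusted p = 3.02e-11) and was the only 1 of the 5 markers tested. With vehicle and TNF-α, *CD14* measured 0.186 and 0.309 CPM and *CD68* 0.193 and 0.229 CPM, at most 12 read pairs in any granulocyte library. *CD163* and *MRC1* were at 3 counts or fewer everywhere, and so was *CD68* in promyelocytes. Lymphocyte markers added up to 5.56 to 5.92, 3.93 to 4.57, 12.7 to 15.1 and 11.3 to 13.02 CPM in the 4 groups. The part of other cell types in the results below was not tested. In RNA from a whole culture, fewer cells of a type and less RNA per cell cannot be told apart.

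The genes lie on 5 chromosomes (hg38, GENCODE 27). *NFKB1* (ENSG00000109320) is at chr4:102501329-102617302 and *NFKB2* (ENSG00000077150) at chr10:102394110-102402529, both on the plus strand. *REL* (ENSG00000162924) is at chr2:60881521-60931610 and *RELB* (ENSG00000104856) at chr19:45001430-45038198, also on the plus strand, and *RELA* (ENSG00000173039) is at chr11:65653596-65663094 on the minus strand. Exon length, over which levels are scaled when genes are compared, ran from 3035 bases in *RELB* to 11255 bases in *REL*, and exon GC content from 38.7% in *REL* to 63.6% in *RELB*.

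NFKB dimers bind κB elements, and the stretches before the start sites are printed to show which subunit genes hold such letters close to their own starts. RefSeq windows of 250 bases before to 50 bases after a start (GRCh38.p14) were held for 4 of the 5 genes, 8 windows in all; *RELB* had no entry. Both strands were searched for GGG and TTCC with 3 bases of any kind between them, and for the same letters with 2 bases between them, and a match to one form can overlap a match to the other. Over all 35116 windows, 6.52% held the first form, 6.58% the second and 11.03% either. Positions count back from the start, and capitals mark matched bases on either strand.
REL, chr2:60881424-60881537, plus strand: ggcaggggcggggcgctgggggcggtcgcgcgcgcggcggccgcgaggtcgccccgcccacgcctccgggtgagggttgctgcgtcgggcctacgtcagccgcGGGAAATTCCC
NFKB1, chr4:102501209-102501319, plus strand: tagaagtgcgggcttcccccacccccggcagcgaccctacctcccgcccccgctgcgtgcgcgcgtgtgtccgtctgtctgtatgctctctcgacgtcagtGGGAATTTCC
NFKB2, inner start, chr10:102395555-102395693, plus strand: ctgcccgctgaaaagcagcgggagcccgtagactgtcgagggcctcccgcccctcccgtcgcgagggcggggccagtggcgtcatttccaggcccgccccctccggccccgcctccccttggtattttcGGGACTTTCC
NFKB2, middle start, chr10:102394463-102394489, plus strand: aacgtcatGGGAATTCCCCcctccggg
NFKB2, middle start, chr10:102394492-102394517, plus strand: gccgagaaGGGGCTTTCCcggccctg
RELA, outer start, chr11:65663858-65664007, minus strand: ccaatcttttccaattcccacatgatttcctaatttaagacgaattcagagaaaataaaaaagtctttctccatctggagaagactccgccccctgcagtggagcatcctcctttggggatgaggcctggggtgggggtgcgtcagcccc

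*REL* held GGGAAATTCC at -47 to -38, read on the opposite strand as GGGAATTTCC 1 base further on. *NFKB1* held GGGAATTTCC at -49 to -40 of its first start and no match at its other start. *NFKB2* held GGGACTTTCC at -21 to -12 and, beyond the bases shown, GGGGCTTCC at -176 to -168 of the inner start, and at the middle start GGGAATTCC at -107 to -99 and GGGGCTTTCC at -78 to -69. The outer *NFKB2* window and both *RELA* windows held none, and the first 150 bases before the outer *RELA* start are shown for contrast. That start, at base 65663857, lies outside the counted *RELA* gene, whose highest coordinate is 65663094. The inner *RELA* start, at base 65662916, lies within the gene, and the bases before it are not shown. The *REL* match and both printed middle-start stretches of *NFKB2* lie in exon bases of the counted genes, past their outermost annotated starts. All these matches are letters in a window and were not tested for binding in these cells.

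TNF-α was followed by higher transcript levels of 4 of the 5 subunit genes in promyelocytes and of all 5 in granulocytes, by edgeR's quasi-likelihood test with Benjamini-Hochberg adjustment over all genes (threshold 0.05). Both precursor genes and *RELB* rose most, *REL* rose less, and *RELA* had the smallest fold change in both cell types. Among all 16250 genes tested in promyelocytes, 14.8% were called, 8.15% higher and 6.65% lower. Among all 16944 genes tested in granulocytes, 49.2% were called, 24.4% higher and 24.8% lower, so that a call in granulocytes sets a gene apart less than one in promyelocytes. The median log2 fold change of the 5 genes was 1.38 in promyelocytes and 2.02 in granulocytes, and over all genes tested it was -0.01 and -0.0047.

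**Figure D1:**
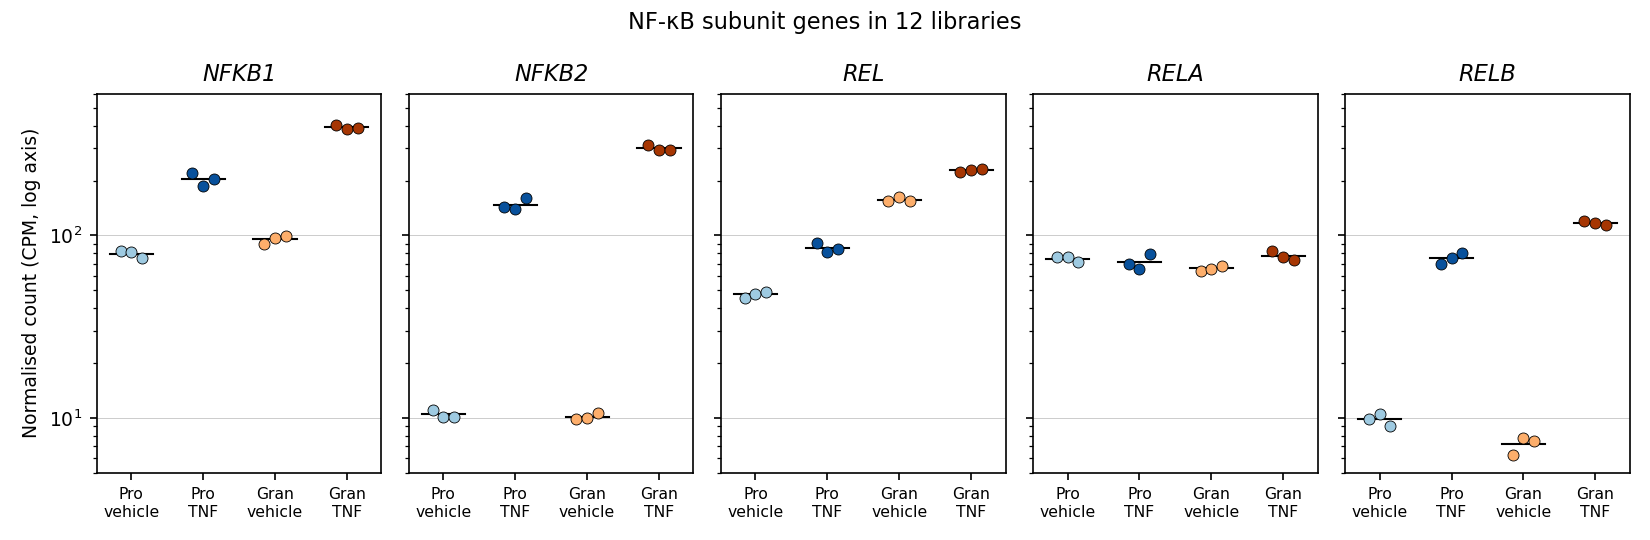
Normalised counts (CPM, log axis) of the 5 NFKB subunit genes in each of the 12 libraries, with 1 point per library and a line at the mean of each group of 3 (Pro, promyelocytes; Gran, granulocytes). The TNF points lie above the vehicle points of the same cell type for *NFKB1*, *NFKB2*, *REL* and *RELB*; for *RELA* the promyelocyte vehicle points, from 71.7 to 75.9 CPM, lie within the range of the TNF points, from 65.2 to 79.6 CPM.

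*NFKB2*, the precursor gene of the non-canonical arm, showed the largest response of the 5. It measured 11.1, 10.2 and 10.0 CPM in the 3 promyelocyte vehicle libraries, from 276 to 340 read pairs, and 143, 139 and 161 CPM in the 3 promyelocyte TNF libraries. In granulocytes it measured 9.82, 10.0 and 10.7 CPM with vehicle and 313, 294 and 292 CPM with TNF-α. The vehicle libraries of both cell types thus lay together at the bottom of the range and the TNF libraries of granulocytes alone at the top, with no overlap between treatments. The rise was 14.4-fold in promyelocytes (log2 fold change 3.85, SE 0.0769; edgeR adjusted p = 2.68e-18) and 29.2-fold in granulocytes (4.87, SE 0.0624; edgeR adjusted p = 4.22e-38). By fold change it ranked 34 from the highest of 16250 genes in promyelocytes and 68 of 16944 in granulocytes.

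*RELB*, whose product pairs mainly with the trimmed *NFKB2* subunit, was the other gene with a low vehicle level and a large rise. Its promyelocyte libraries held 9.80, 10.6 and 9.05 CPM with vehicle and 69.8, 74.9 and 79.8 CPM with TNF-α. Its granulocyte libraries held 6.24, 7.78 and 7.48 CPM with vehicle and 120.5, 116 and 115 CPM with TNF-α. No library of one treatment reached the range of the other, and the granulocyte libraries were the lowest with vehicle and the highest with TNF-α. The rise was 7.77-fold in promyelocytes (log2 fold change 2.96, SE 0.0786; edgeR adjusted p = 2.30e-16) and 16.1-fold in granulocytes (4.01, SE 0.0705; edgeR adjusted p = 1.07e-33).

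*NFKB1*, the precursor gene of the canonical arm, started from a higher level. It measured 81.8, 81.4 and 75.2 CPM in promyelocyte vehicle libraries and 219, 187 and 205 CPM in promyelocyte TNF libraries. In granulocytes it measured 90.0, 97.2 and 99.8 CPM with vehicle and 402, 383 and 389 CPM with TNF-α. The treatments did not overlap in either cell type. The rise was 2.60-fold in promyelocytes (log2 fold change 1.38, SE 0.0647; edgeR adjusted p = 2.77e-12) and 4.05-fold in granulocytes (2.02, SE 0.0517; edgeR adjusted p = 1.85e-28).

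*REL* encodes c-Rel, a transactivating subunit best known from lymphoid and myeloid cells. It measured 45.6, 47.9 and 49.0 CPM in promyelocyte vehicle libraries and 90.8, 81.5 and 84.2 CPM in promyelocyte TNF libraries. Granulocyte vehicle libraries already held 154, 162 and 154 CPM, above every promyelocyte library, and granulocyte TNF libraries held 224, 229.7 and 230.0 CPM. The rise was 1.83-fold in promyelocytes (log2 fold change 0.87, SE 0.0643; edgeR adjusted p = 3.53e-09) and 1.44-fold in granulocytes (0.53, SE 0.0481; edgeR adjusted p = 1.01e-11). As a difference of means the gain was 38.0 CPM in promyelocytes and 71.2 CPM in granulocytes. The part of the vehicle level in the smaller fold was not tested. In rank by fold change *REL* was 465 of 16250 in promyelocytes and 2389 of 16944 in granulocytes.

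*RELA* encodes p65, the main transactivating subunit of the canonical arm. It measured 75.8, 75.9 and 71.7 CPM in promyelocyte vehicle libraries and 69.99, 65.2 and 79.6 CPM in promyelocyte TNF libraries, and the groups overlapped. In granulocytes it measured 64.0, 65.4 and 68.3 CPM with vehicle and 82.0, 76.2 and 73.7 CPM with TNF-α, without overlap. The log2 fold change was -0.03 in promyelocytes (95% interval -0.17 to 0.10; edgeR adjusted p = 0.812) and 0.22 in granulocytes, a 1.16-fold rise (SE 0.0540; edgeR adjusted p = 0.00107). With the GC and length trends of each library removed, the granulocyte value was 0.09 and no longer passed the test (edgeR adjusted p = 0.0880). Counted over the 5 genes, vehicle and TNF libraries did not overlap for 4 in promyelocytes and 5 in granulocytes, against 30.9% and 55.1% of all genes tested.

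The size of the response differed between the cell types for the members, by the interaction term when the 12 libraries were fitted together. Cell type, ATRA, cell density and experiment cannot be told apart in this term, since each cell type was treated in its own experiment. The joint fit scales all libraries together, so its values can depart from the differences of the separate fits. The difference of the log2 fold changes, granulocytes minus promyelocytes, was 0.67 for *NFKB1* (95% interval 0.51 to 0.84; edgeR adjusted p = 7.01e-07), 1.06 for *NFKB2* (0.86 to 1.26; edgeR adjusted p = 6.94e-09) and 1.09 for *RELB* (0.87 to 1.31; edgeR adjusted p = 3.02e-08). For *REL* it went the other way, at -0.31 (-0.46 to -0.16; edgeR adjusted p = 0.00356). *RELA* passed narrowly at 0.28 (0.11 to 0.46; edgeR adjusted p = 0.0234), and this call was lost under each of the 6 other settings tried, where it ranged from 0.07 to 0.29. It was also lost without replicate 2 of promyelocyte vehicle (0.27), promyelocyte TNF (0.22) or granulocyte vehicle (0.28), and without replicate 1 of granulocyte vehicle (0.25) or granulocyte TNF (0.24). Of all 18124 genes tested, 24.0% were called, 14.1% with a larger value in granulocytes and 9.88% with a smaller one, and the median was 0.03 over all genes and 0.67 over the 5. The interaction uses the same libraries as the responses themselves and is not separate evidence of them.

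Across all genes the interaction moved with exon GC content, and the members span that range. In the quintile of genes with the lowest GC content, which holds *REL*, the median interaction was -0.14. In the middle quintile, which holds *NFKB1*, it was 0.04, and in the highest, which holds *NFKB2*, *RELA* and *RELB*, it was 0.23. With GC and length trends removed, the interaction was 0.61 for *NFKB1*, 0.78 for *NFKB2*, 0.80 for *RELB* and -0.22 for *REL*, all still called (largest edgeR adjusted p = 0.00589), and 0.07 for *RELA*, which was not (edgeR adjusted p = 0.483).

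**Figure D2:**
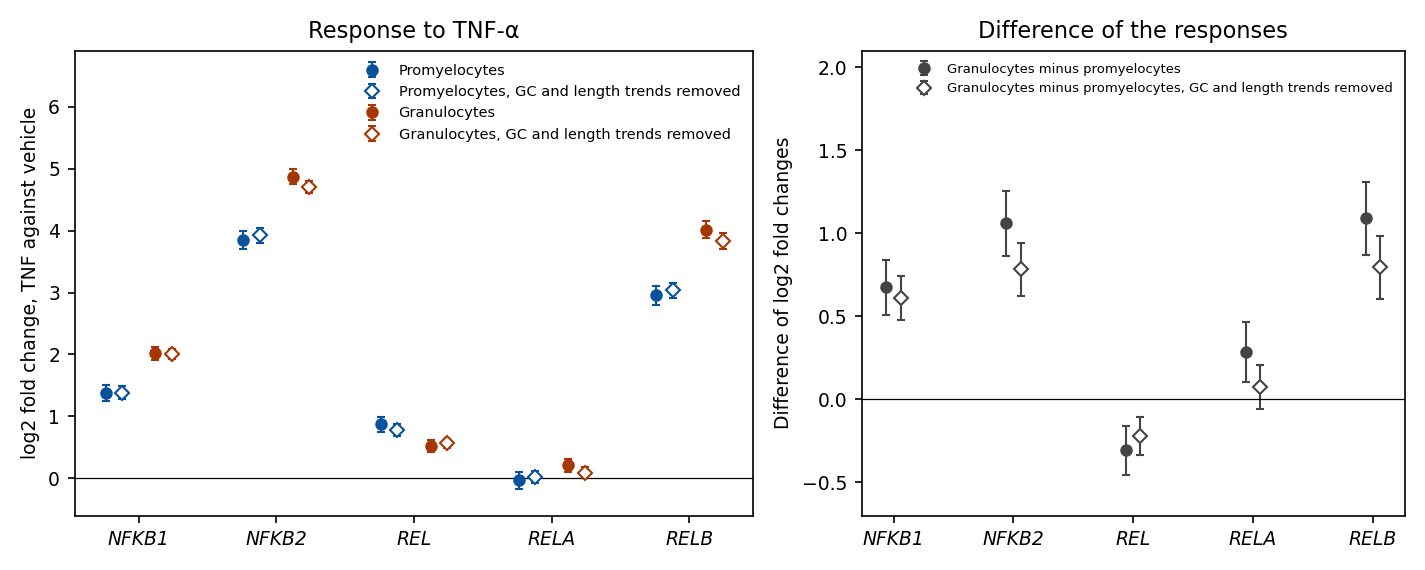
Left, log2 fold change of TNF-α against vehicle for the 5 genes in promyelocytes and granulocytes, each fitted separately. Right, the interaction from the fit of all 12 libraries, granulocytes minus promyelocytes, which can depart from the difference of the values on the left. Filled points are the reported fits, open diamonds the fits with each library's GC and length trends removed, and bars 95% intervals. *NFKB1*, *NFKB2* and *RELB* lie above 0 on the right and *REL* lies below 0 in both fits, while the interval of *RELA* reaches 0 once the trends are removed.

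Vehicle levels were compared between the cell types in the same fit of 12 libraries. The reservation holds that ATRA, cell type, cell density and experiment cannot be told apart. *REL* was 3.30-fold higher in granulocytes (log2 difference 1.72, SE 0.0554; edgeR adjusted p = 3.65e-20). *NFKB1* was 1.20-fold higher (0.27, SE 0.0603; edgeR adjusted p = 2.81e-04), *RELB* was lower (-0.44, SE 0.0926; edgeR adjusted p = 1.19e-04), and so was *RELA* (-0.18, SE 0.0646; edgeR adjusted p = 0.0172). The call of *RELA* was lost with DESeq2's test (-0.14, adjusted p = 0.0825) and without promyelocyte vehicle replicate 2 (-0.17) or granulocyte vehicle replicate 1 (-0.14), and its difference was larger, -0.34, with GC and length trends removed (edgeR adjusted p = 2.81e-07). *NFKB2* did not pass the test (-0.04, 95% interval -0.20 to 0.12; edgeR adjusted p = 0.682). The 4 calls stand against 72.0% of 18124 genes called, 35.7% higher and 36.3% lower. The 4 genes without overlap between the vehicle groups stand against 74.4% of genes, so a difference of vehicle level was the usual case. By size, the difference of *REL* ranked 3124 of 18124 genes. These vehicle libraries also enter the responses, and no relation between vehicle level and response was read from them.

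With TNF-α, the mean level in granulocytes was 2.66 times that in promyelocytes for *REL*, 2.03 times for *NFKB2*, 1.92 times for *NFKB1* and 1.57 times for *RELB*, without overlap between the groups. For *RELA* the ratio was 1.08 and the groups overlapped. These ratios are given as values, without a test. The share of all genes without overlap was not computed for the TNF groups, and for the vehicle groups it was 74.4%.

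To compare the genes with each other, CPM was divided by exon length (CPM per kb). With vehicle, *RELA* led in promyelocytes at 13.6 ± 0.433 (SD, n = 3), followed by *NFKB1* at 12.7 ± 0.590, *REL* at 4.22 ± 0.155, *RELB* at 3.23 ± 0.249 and *NFKB2* at 2.33 ± 0.130 CPM per kb, with no overlap between neighbours in this order. With TNF-α, *NFKB2* at 32.9 ± 2.58 and *NFKB1* at 32.5 ± 2.52 overlapped at the top, above *RELB* at 24.7 ± 1.64, *RELA* at 13.1 ± 1.34 and *REL* at 7.60 ± 0.424 CPM per kb. *NFKB2* thus went from the last place to the first without its lead over *NFKB1* exceeding the spread.

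In granulocytes with vehicle, *NFKB1* at 15.3 ± 0.812 and *REL* at 13.9 ± 0.426 CPM per kb overlapped at the top, and *RELB* at 2.36 ± 0.270 and *NFKB2* at 2.27 ± 0.0997 overlapped at the bottom, with *RELA* between them at 12.1 ± 0.396. With TNF-α, *NFKB2* stood at 66.9 ± 2.59, *NFKB1* at 62.6 ± 1.55, *RELB* at 38.6 ± 0.963, *REL* at 20.2 ± 0.321 and *RELA* at 14.1 ± 0.783 CPM per kb, with no overlap between neighbours. *RELA* came last in this group and first in promyelocytes with vehicle, although its own level ranged only from 11.7 to 15.01 CPM per kb over all 12 libraries.

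The place of *REL* in these orders depends on the length used. Of its 11255 exon bases, 5702 (50.7%) at the 3' end are also exon bases of ENSG00000267520, a gene on the same strand listed at 0 counts in every library, and read pairs that fall on exons of both genes are left out by the counting. Over the 5553 bases that *REL* does not share, its level was 8.56 ± 0.313 in promyelocyte vehicle, 15.4 ± 0.859 in promyelocyte TNF, 28.2 ± 0.864 in granulocyte vehicle and 41.0 ± 0.651 CPM per kb in granulocyte TNF libraries. On that scale *REL* stood above *RELA* in promyelocytes with TNF-α, first in granulocytes with vehicle, and above *RELB* in granulocytes with TNF-α. The folds of *REL* between groups do not depend on the length. The other 4 genes share no exon bases with another gene of their strand.

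**Figure D3:**
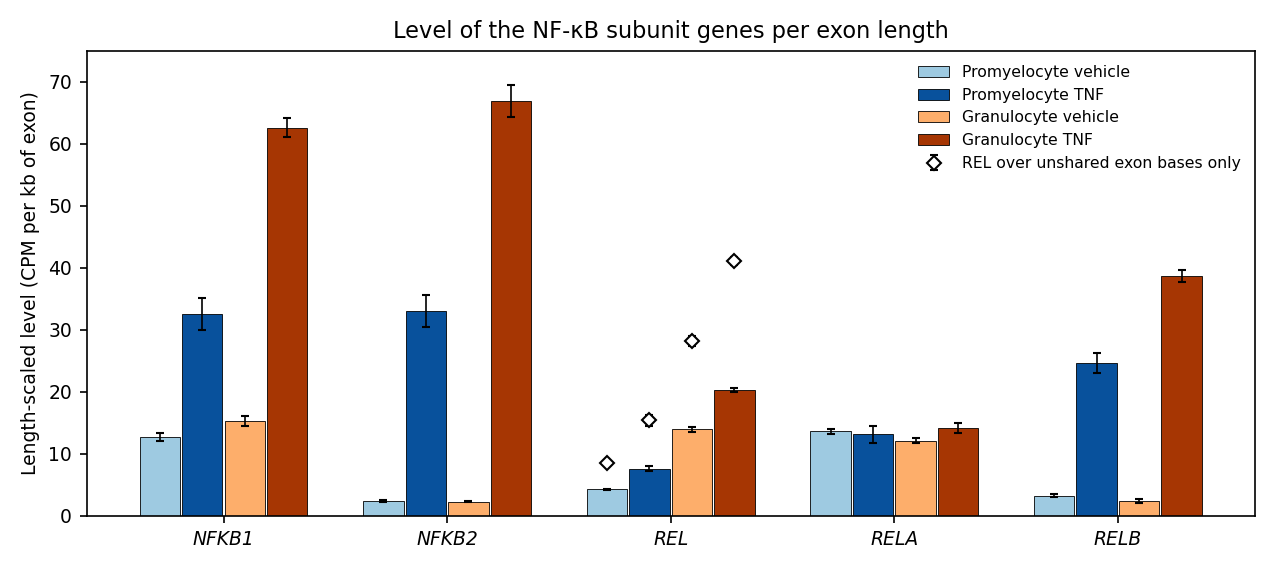
Length-scaled level (CPM per kb of exon, linear axis from 0) of the 5 genes in the 4 groups; bars are means and error bars SD of 3 libraries, and open diamonds show *REL* over its unshared exon bases. *NFKB2* goes from 2.33 to 32.9 in promyelocytes and from 2.27 to 66.9 in granulocytes, while *RELA* stays between 12.1 and 14.1.

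The sum of the 5 genes was 36.1 ± 1.20 CPM per kb in promyelocyte vehicle, 111 ± 6.09 in promyelocyte TNF, 45.9 ± 1.62 in granulocyte vehicle and 202 ± 5.39 in granulocyte TNF libraries (SD, n = 3). Within the sum, *RELA* made up 37.7% ± 0.0914 in promyelocytes with vehicle and 11.8% ± 0.573 with TNF-α, and in granulocytes 26.3% ± 0.570 and 6.98% ± 0.213. *NFKB2* went from 6.45% ± 0.306 to 29.7% ± 0.924 in promyelocytes and from 4.94% ± 0.149 to 33.0% ± 0.394 in granulocytes, and *RELB* from 8.94% ± 0.440 to 22.3% ± 1.40 and from 5.14% ± 0.423 to 19.1% ± 0.130. The share of *NFKB1* went from 35.2% ± 0.508 to 29.4% ± 1.91 in promyelocytes and from 33.3% ± 0.653 to 30.9% ± 0.301 in granulocytes. *REL* went from 11.7% ± 0.766 to 6.86% ± 0.445 and from 30.3% ± 1.08 to 10.0% ± 0.419. Over the unshared length the *REL* share was 21.2% ± 1.23 and 12.99% ± 0.788 in promyelocytes and 46.9% ± 1.28 and 18.4% ± 0.699 in granulocytes, and the *NFKB1* share in granulocytes then went up with TNF-α instead of down, from 25.4% ± 0.706 to 28.02% ± 0.253. These are shares of transcripts, and protein was not measured.

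The members also differed in how they varied together. As a measure of likeness, log2 CPM was centred on each gene's mean over the 12 libraries and the root mean square difference between 2 genes was taken, so that 0 would mean the same pattern; it is a description over libraries that share 4 groups. *NFKB2* and *RELB* were closest at 0.485, and *NFKB2* and *RELA* farthest apart at 2.15. Among all other genes, the patterns nearest to *NFKB2* were those of *TNFAIP3*, which encodes the ubiquitin-editing inhibitor A20 (0.135), *IER3*, an immediate early response gene (0.155), and *NFKBIA*, which encodes IκBα (0.346). Nearest to *NFKB1* were *NFKBIE*, another IκB gene (0.122), *LACTB* (0.138) and *DMXL2* (0.144).

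The nearest patterns to *RELB* were those of *MMP9*, a gelatinase gene (0.300), *CD83*, an activation marker of antigen-presenting cells (0.338), and *PTAFR*, the platelet-activating factor receptor gene (0.377). *REL* lay close to *PTPRJ*, a receptor tyrosine phosphatase gene (0.0774), *SPPL2A* (0.117) and *TYK2*, a Janus kinase gene (0.128), which share its high level in granulocytes with vehicle. *RELA*, with its nearly flat pattern, was matched within 0.0444 by *SREBF2*, within 0.0499 by *PEX14* and within 0.0522 by *CCNK*.

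The genes beside the members were read as a local comparison. None of the nearest tested genes on either side passed the test as higher with TNF-α in promyelocytes or in granulocytes. Of these 10 genes, 6 were called lower in granulocytes, where 24.8% of all genes were, and 1 of them, *SIPA1*, was also called lower in promyelocytes. Beside *NFKB1*, *SLC39A8* had log2 fold changes of -0.0037 and -0.01 in promyelocytes and granulocytes, and *MANBA*, 14186 bases away, had -0.02 and -0.40 (edgeR adjusted p = 0.831 and 4.05e-08). Beside *NFKB2*, *GBF1* had -0.05 and -0.04, and *PSD*, only 88 bases away on the opposite strand, held at most 19 read pairs in any library and was tested only in granulocytes (-0.79, edgeR adjusted p = 0.183).

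Beside *RELB*, *CLASRP*, 842 bases away, had log2 fold changes of -0.10 in promyelocytes and -0.21 in granulocytes (edgeR adjusted p = 0.456 and 0.00413), and *CLPTM1* had -0.09 and 0.14 (edgeR adjusted p = 0.414 and 0.0501). Beside *REL*, *PAPOLG* had 0.05 and -0.29 (edgeR adjusted p = 0.658 and 4.86e-05), and *NONOP2*, a pseudogene with at most 87 read pairs, had -0.38 and -0.79 (edgeR adjusted p = 0.429 and 0.00986). Beside *RELA*, *SIPA1* had -0.28 and -0.45 (edgeR adjusted p = 0.0106 and 1.47e-09), and *KAT5* had -0.02 and -0.22 (edgeR adjusted p = 0.860 and 0.00190). *RNU4-51P*, which lies within *REL* on the same strand and held at most 70 read pairs, had 0.81 and 0.58 (edgeR adjusted p = 0.257 and 0.0309), and reads of *REL* introns cannot be told apart from its own.

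**Figure D4:**
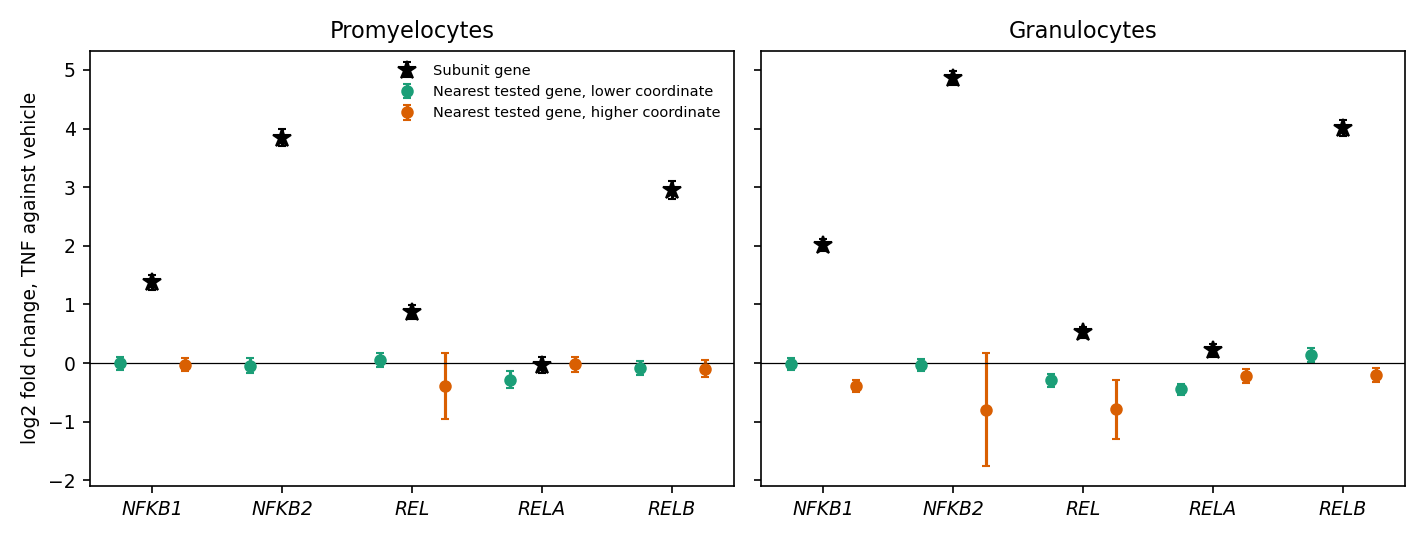
Log2 fold change of TNF-α against vehicle for each NFKB subunit gene (stars) and for its nearest tested gene on either side on the chromosome (circles), in promyelocytes (left) and granulocytes (right); bars are 95% intervals. *NFKB2* lies at 3.85 and 4.87 while its neighbour *GBF1* lies at -0.05 and -0.04; *PSD* has no point in promyelocytes because it was not tested there.

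The other genes of the pathway place these values. Counts of called genes in the lists stand against 8.15% of all genes higher and 6.65% lower in promyelocytes. In granulocytes these shares were 24.4% and 24.8%. Of the 6 IκB family genes, 5 rose and none fell in either cell type, with a median log2 fold change of 1.22 in promyelocytes and 2.05 in granulocytes. The largest rise was that of *NFKBIA* (3.91 and 5.51; edgeR adjusted p = 1.75e-19 and 3.37e-39), near the value of *NFKB2* in promyelocytes. Of the ubiquitin feedback genes, which take ubiquitin chains off the pathway or bind them, 5 of 6 were tested; 3 rose in promyelocytes and 4 in granulocytes, none fell, and the medians were 0.74 and 0.89. *TNFAIP3* led with 3.63 and 5.08 (edgeR adjusted p = 3.03e-19 and 3.56e-38).

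Upstream of the subunits, genes were called in both directions, where 14.8% of all genes were called in promyelocytes and 49.2% in granulocytes. Of 10 genes of the IκB kinase complex and the kinases around it, 3 rose and 1 fell in promyelocytes, and 7 rose and 1 fell in granulocytes, with medians of 0.11 and 0.24. *IKBKE*, an IκB kinase-related gene, rose most (1.14 and 1.83), and *TAB1*, an adaptor of the TAK1 kinase, fell by 0.20 and by 0.41 on the log2 scale. Of the 12 tested of 13 TNF receptor and adaptor genes, 3 rose and 3 fell in promyelocytes and 6 rose and 2 fell in granulocytes, with medians of -0.0074 and 0.13. *BIRC3*, which encodes the ubiquitin ligase cIAP2, rose by 5.58 and 8.31, and the receptor gene *TNFRSF1A* fell by 0.48 and 0.41 on the log2 scale.

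Genes for the trimming of the precursors and the turnover of Rel proteins moved little apart from *SOCS1*. Of 7 tested of 8, 2 rose and none fell in promyelocytes, and 3 rose and 2 fell in granulocytes, with medians of 0.10 and 0.11. Of all genes, 14.8% were called in promyelocytes and 49.2% in granulocytes. *SOCS1*, whose product is known to promote the destruction of RELA in the nucleus, rose by 2.83 in promyelocytes (edgeR adjusted p = 1.92e-08). It held only 18 to 28 read pairs in promyelocyte vehicle libraries. In granulocytes *SOCS1* was not called (-0.04, edgeR adjusted p = 0.888), and its interaction, granulocytes minus promyelocytes, was -2.83 (edgeR adjusted p = 6.22e-08). In granulocytes the largest rise was that of *FBXW7* (0.32) and the largest fall that of *BTRC* (-0.31), which encodes the ubiquitin ligase subunit for IκB proteins and the precursors.

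Widely cited NFKB target genes were measured as the readout of the pathway. Of 24 listed, 20 were tested in each cell type. *SOD2* was left out because no identifier of the counts was matched to its symbol, and the other untested genes did not pass the filter. Of the tested genes, 17 rose in promyelocytes and 19 in granulocytes, and none fell. Their median log2 fold change was 3.13 in promyelocytes and 3.98 in granulocytes and, with the genes whose vehicle libraries all held 3 counts or fewer set to their lower bound (3 in promyelocytes, 1 in granulocytes), 2.77 and 3.45. *VCAM1*, an adhesion molecule gene, rose most. It held at most 2 read pairs in promyelocyte vehicle libraries and 19.4 ± 0.918 CPM with TNF-α, at least 187-fold higher by a floor of 3 counts per library, and in granulocytes its log2 fold change was 8.91 (edgeR adjusted p = 8.45e-37). The members and these lists were chosen with earlier results known, so the counts describe the pathway and are no test of it.

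**Figure D5:**
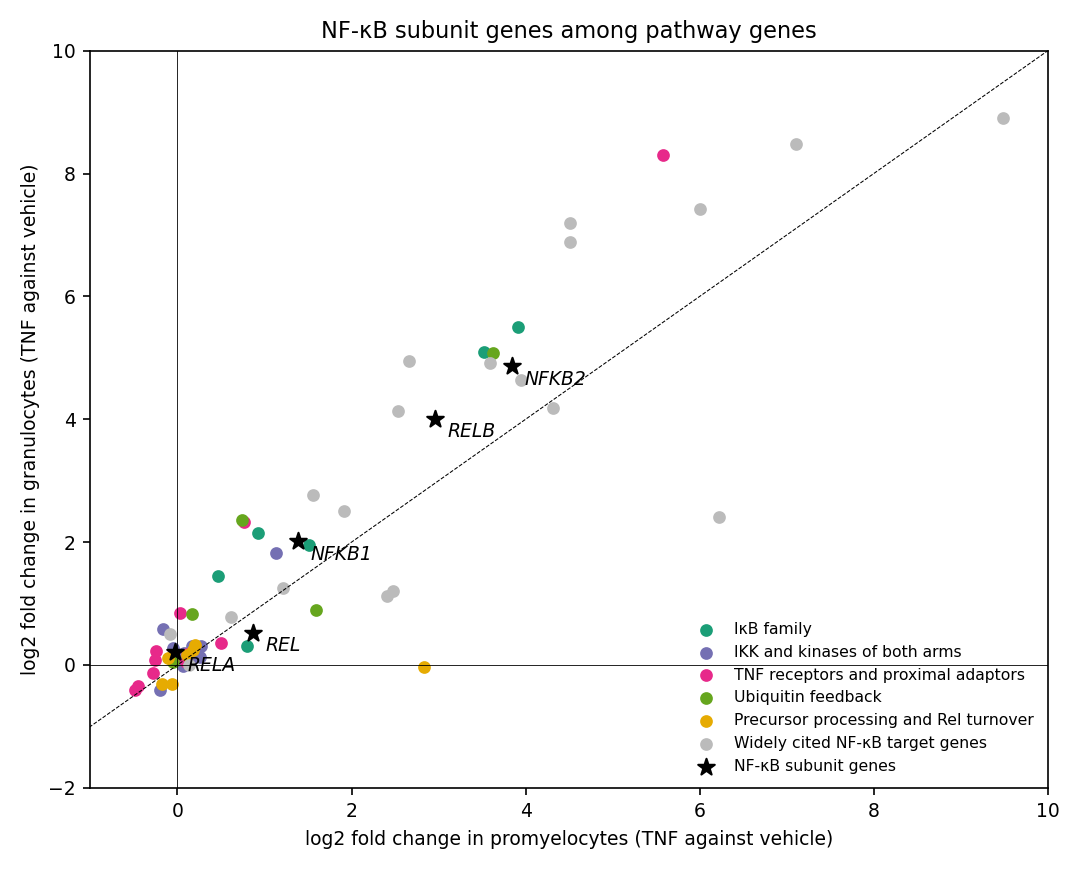
Log2 fold change of TNF-α against vehicle in granulocytes (y axis) plotted against that in promyelocytes (x axis) for the 5 NFKB subunit genes (stars) and for pathway genes tested in both cell types (circles, coloured by list); the dashed line marks equal values. *NFKB1*, *NFKB2* and *RELB* lie above the line, *REL* lies below it at 0.87 and 0.53, and *RELA* lies near the origin.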

How the data were processed

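RNA depleted of ribosomal RNA was sequenced as paired ends. The authors aligned reads to hg38 with STAR 2.5.3a and counted read pairs per GENCODE 27 gene with featureCounts 1.5.2, on primary alignments of complete, non-chimeric pairs and the reverse strand. They deposited these raw counts for 58288 genes, and every value starts from them. By default the counter drops pairs that touch exons of several same-strand genes, which lowers *REL*. Symbols came from GENCODE 44 names for 57532 identifiers.

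Groups were taken from the labels. Promyelocytes and granulocytes were fitted separately in edgeR 4.0.16 (R 4.3.3): TMM scaling, filterByExpr (minimum count 10, minimum total 15), the quasi-likelihood F test and Benjamini-Hochberg adjustment over all genes tested, with a threshold of 0.05. The interaction and the vehicle levels came from a fit of all 12 libraries. The SE is the size of the log2 fold change (prior count 0.125) over the square root of F. Likeness used log2 CPM with a prior count of 2. The fits were tested on simulated data with known changes. These data had 1 spread for all genes and no GC trend, so they cannot show how such features act on the calls. Alternatives were DESeq2's size factors, DESeq2 1.42.0, no filter, the replicate number as a block, removal of GC and length trends by offsets, 1 fit of all libraries, no length scaling, and leaving out each library; the unshared length of *REL* was added after the data were seen.

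The text names the 5 members, the largest called rise and fall of each pathway list (1 list is not reported here), the nearest tested gene on either side and any overlapping gene, and the 3 most alike patterns per member. The members and lists were chosen with earlier results of these data known.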

Additional observations from a re-analysis of the deposited data

Results flagged for a closer look

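The response to TNF-α differed between granulocytes and promyelocytes for all 5 genes by the interaction term of edgeR's quasi-likelihood test, and each is listed for that reason. Cell type, ATRA, cell density and experiment cannot be told apart in this term. The difference of the log2 fold changes, granulocytes minus promyelocytes, was 0.67 for *NFKB1*, 1.06 for *NFKB2* and 1.09 for *RELB*. It was -0.31 for *REL*, the only member with the smaller fold in granulocytes. For *RELA* it was 0.28, a value that no longer passed the test under any of the 6 other settings. Across all genes tested, 24.0% were called in the same test, and the difference moved with exon GC content; the part of GC content beyond the trends removed was not tested.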

How the results depend on the processing

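The calls of *NFKB1*, *NFKB2*, *REL* and *RELB* for the response in either cell type and for the interaction kept their direction and their side of the threshold under every setting and every left-out library. All changed calls concerned *RELA*, and the only other change of sign was that of *NFKB2*'s uncalled vehicle level. The response of *RELA* in promyelocytes, never called, turned to 0.025 with GC and length trends removed and 0.022 with the replicate block as well, and ranged from -0.11 to 0.035 over left-out libraries, above 0 only without TNF replicate 2. Its response in granulocytes was 0.0914 with those trends removed and 0.0910 with the block as well, and not called. Its interaction was not called with DESeq2's size factors (0.23), no filter (0.20), DESeq2's test (0.23), the replicate block (0.29), the trends removed (0.074) or both of the last (0.075). Over left-out libraries it ranged from 0.22 to 0.37, and the call was lost without replicate 2 of promyelocyte vehicle, promyelocyte TNF or granulocyte vehicle and without replicate 1 of granulocyte vehicle or granulocyte TNF. The lower vehicle level of *RELA* in granulocytes was -0.34 with the trends removed, alone or with the block, was not called by DESeq2's test (-0.14), ranged from -0.21 to -0.14 over left-out libraries, and lost its call without promyelocyte vehicle replicate 2 or granulocyte vehicle replicate 1. The vehicle difference of *NFKB2* ranged from -0.074 to 0.0054 and was above 0 without promyelocyte vehicle replicate 1 or granulocyte vehicle replicate 1. The causes were not tested.

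Without length scaling the *NFKB2* share of the 5 was 4.71%, 25.3%, 3.03% and 26.9% in promyelocyte vehicle, promyelocyte TNF, granulocyte vehicle and granulocyte TNF libraries, and with the unshared length of *REL* it was 5.76%, 27.8%, 3.77% and 29.96%. The *RELA* share was 33.6% and 19.6% without length scaling in the vehicle groups, and 33.7%, 11.03%, 20.04% and 6.33% with the unshared length.

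Same-numbered vehicle and TNF libraries did not deviate together (correlations of deviations -0.105 to -0.0059), so the numbers were not taken to pair the libraries; with the replicate block 1012 genes were higher and 821 lower in promyelocytes against 1324 and 1081 without it, and no other call of a member changed. Calls in promyelocytes fell to 945 higher and 653 lower without vehicle replicate 2. The interaction split of 2561 higher and 1790 lower genes became 2128 and 2266 with DESeq2's size factors, 1991 and 2518 without the filter, 1943 and 2269 with DESeq2's test and 2147 and 2361 with the trends removed. Each group held 3 flasks of 1 line, and what limits the precision was not tested.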
